A study of Cricetulus griseus with 16 samples.

Results

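The Krüppel-like factors (KLFs) are transcription factors that bind GC-rich and CACCC sequences through zinc fingers at their carboxyl end. The family shares this DNA-binding end with the SP factors, while the amino ends differ and recruit either activators or repressors. KLF2, KLF4, KLF5, KLF6 and KLF7 are mainly known as activators, KLF3 represses through the corepressor CtBP, and KLF9, KLF10, KLF11 and KLF13 recruit the corepressor Sin3A. Several KLF genes respond within an hour to serum, growth factors or stress, and their transcripts are short-lived. The 10 genes described here, Klf2, Klf3, Klf4, Klf5, Klf6, Klf7, Klf9, Klf10, Klf11 and Klf13, were taken by name from the 20824 genes counted, and all 10 were present.

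RNA was sequenced from CHO cells, an adherent Chinese hamster ovary line (ATCC CCL-61). The 4 groups, each of 4 cultures lettered A to D, were untreated cells at 37 °C, cells heated to 40 °C for either 1 h or 6 h, and cells heated to 42.5 °C for 1 h. No group carries any other treatment or genetic change, and no recovery period before collection is given for the heated cultures. The labels give no time for the 37 °C cultures, so hours of heating and hours in culture cannot be told apart. All 16 libraries come from 1 cell line, so the spread between cultures does not include variation between lines, and in such bulk RNA a lower level in every cell and fewer expressing cells cannot be told apart.

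Libraries held between 10504192 and 14668365 counts, where 3 counts correspond to between 0.205 and 0.286 CPM (counts scaled to a fixed library total), and this floor takes in only counting error. The study left 1 control library out, which matching of counts identified as 37 °C replicate D, and the 37 °C group below is replicates A, B and C unless D is named. Dnajb1 and Hspb1, which encode a co-chaperone and a small heat shock protein, were higher in every heated group, with log2 fold changes (log2FC) of 3.79 and 2.98 at 42.5 °C, 1.63 and 1.11 after 1 h at 40 °C, and 0.65 and 1.53 after 6 h. With replicate D among the controls neither passed the test after 1 h at 40 °C, with adjusted p of 0.114 and 0.408. After 6 h Dnajb1 did not pass in 1 fit over all groups (adjusted p = 0.0928). Without 6 h replicate B its rise was under 1.5-fold (log2FC 0.54, adjusted p = 5.32e-05). Of the markers checked, Vim was between 1823 and 2381 CPM in the 15 libraries, whereas Ptprc of leukocytes, Cdh5 of endothelium and Epcam of epithelium had at most 1 count per library and Pecam1 at most 4. The epithelial Cdh1 was between 1.8 and 2.91 CPM in the group means, and the names Krt8 and Krt18 were not matched.

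Every KLF member had at least 14 counts in each of the 16 libraries and passed the filter on low counts in all 6 comparisons. Klf4 and Klf5 gave 666 to 1695 counts per library, and Klf3, Klf6 and Klf11 gave 257 to 672. Klf10 gave 92 to 238 counts, Klf13 68 to 168, Klf9 34 to 95 and Klf7 14 to 78. Klf2 had the fewest, 14 to 40, so that its values carry the largest counting error. These counts are not corrected for transcript length and do not rank the genes by abundance. Levels below are CPM scaled by the trimmed mean of M values (TMM).

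**Figure D1:**
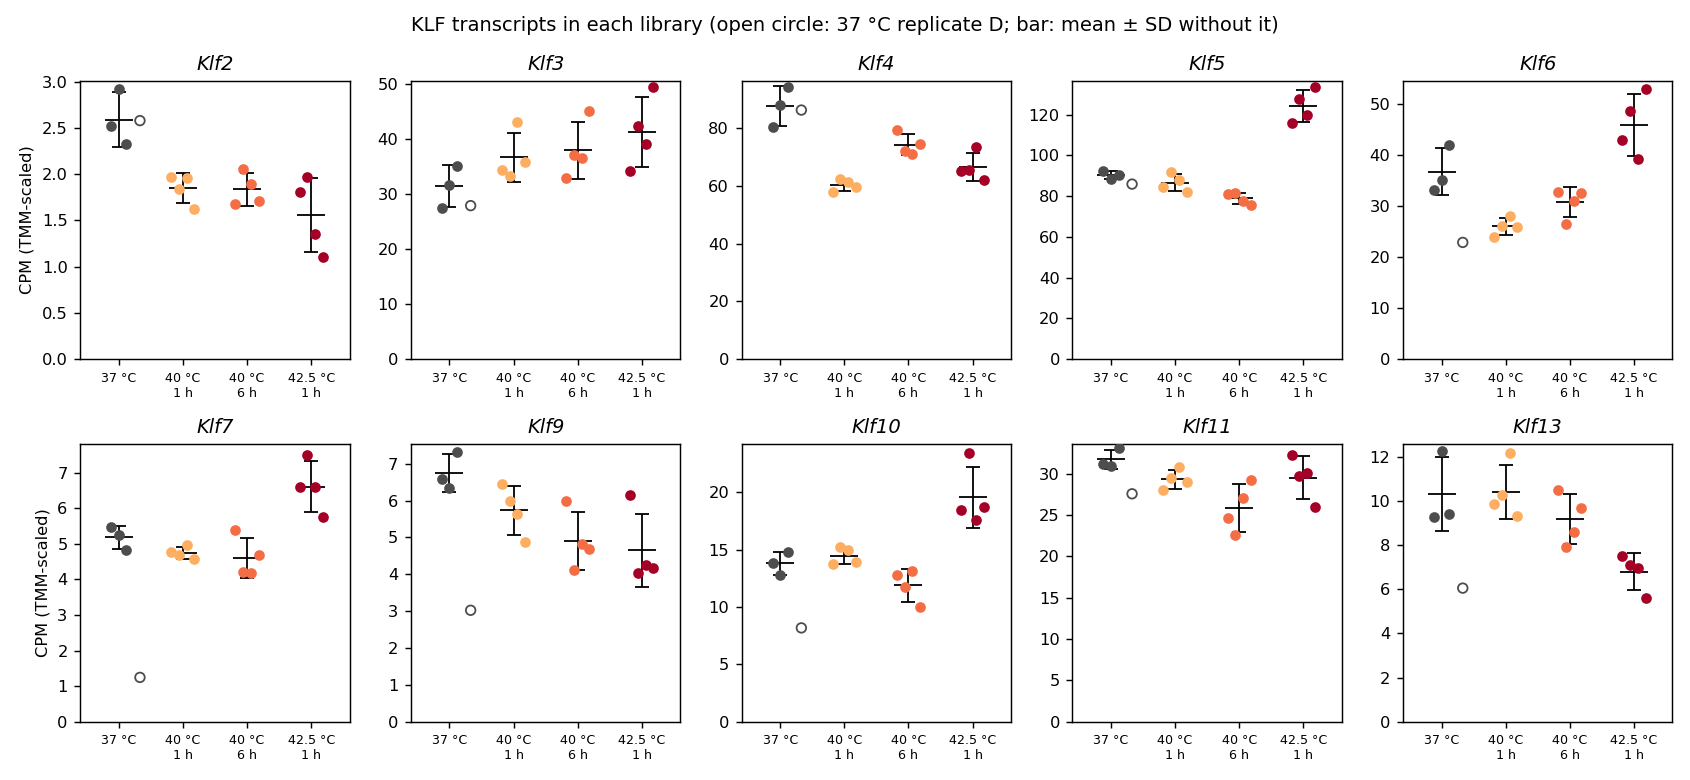
Transcript level of each KLF gene in CPM (TMM-scaled, vertical axis from 0) in the 4 treatment groups. Filled points are libraries, bars are the mean ± SD without 37 °C replicate D, and the open circle is replicate D. For Klf5 all 4 libraries at 42.5 °C lie between 115.9 and 133.7 CPM, above the 75.6 to 92.3 CPM of the other groups, and for Klf13 they lie between 5.6 and 7.49 CPM, below the 7.92 to 12.3 CPM of the other filled points.

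Most KLF transcripts in heated cells differed from 37 °C by less than 1.5-fold, and the direction depended on the gene and the treatment. Each treatment was compared with 37 °C in edgeR (quasi-likelihood F test) across all genes that passed the filter, and rose or fell is used below for a Benjamini-Hochberg adjusted p under 0.05. A gene that also changed by at least 1.5-fold either way was called a differentially expressed gene (DEG), as the study did. After 1 h at 40 °C 2 of 10 members fell and none rose, against 1.64% of all 10494 genes tested that changed, 0.572% lower and 1.07% higher. After 6 h at 40 °C 5 fell and 1 rose, against 29.4% of 10499 genes that changed, 14.8% lower and 14.7% higher. At 42.5 °C 4 rose and 4 fell, against 43.1% of 10470 genes that changed, 20.8% higher and 22.3% lower. DEGs among the members numbered 0 after 1 h at 40 °C, where 0.334% of all genes were called, 0 after 6 h at 40 °C, where 3.11% were called, and 2 at 42.5 °C, where 7.51% were called and 4.68% were lower DEGs. The median log2FC of the members was -0.12, -0.23 and 0.11 in this order, while the median over all genes tested was 0.00 each time. Read by overlap alone, all heated libraries lay below all controls in 4 members after 1 h at 40 °C, 6 after 6 h at 40 °C and 4 at 42.5 °C, against 6.65%, 17.6% and 22.9% of all genes, and above all controls in 0, 0 and 3, against 6.8%, 18.6% and 23.1%. The 3 comparisons share their control libraries, so that a member's values in them are not independent.

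**Figure D2:**
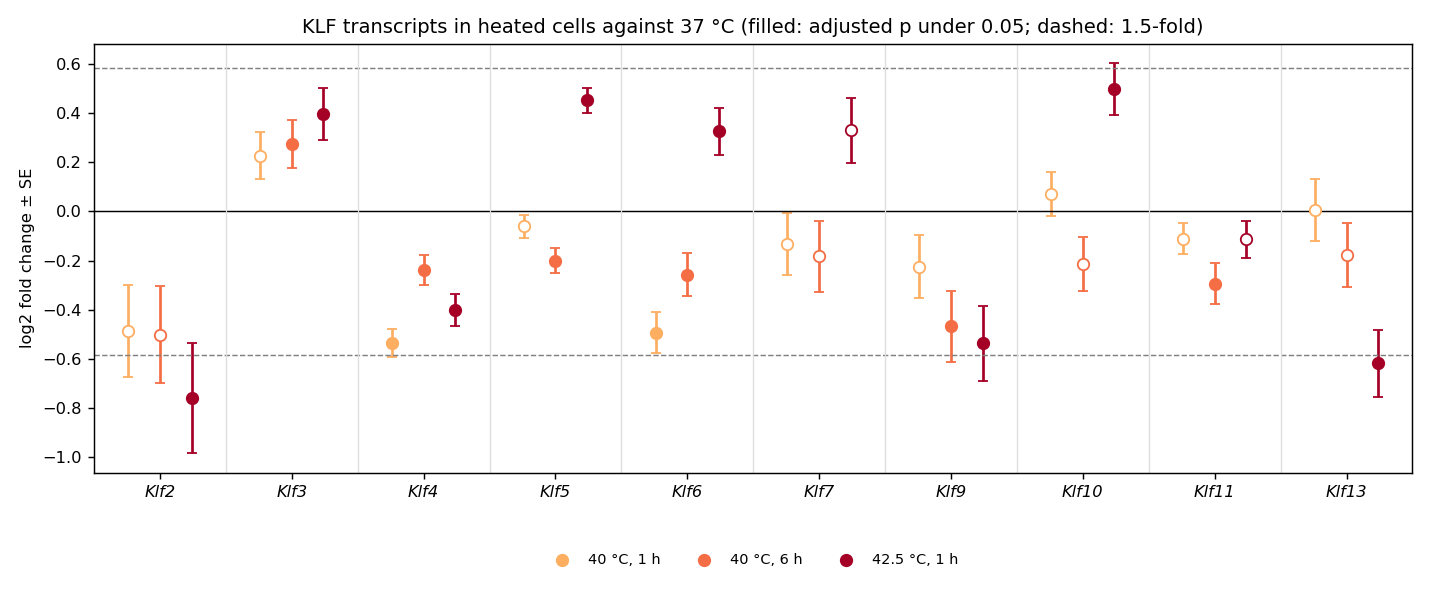
Log2FC ± SE against 37 °C for each KLF gene after 1 h at 40 °C, 6 h at 40 °C and 1 h at 42.5 °C. Filled points have an adjusted p under 0.05 and dashed lines mark 1.5-fold. Klf5, Klf6, Klf7 and Klf10 have positive values at 42.5 °C and values from -0.49 to 0.07 at 40 °C, and Klf2, Klf4, Klf9 and Klf11 have negative values under every treatment.

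Among the activators, Klf4 (ENSCGRG00001024655), which encodes a reprogramming factor that also restrains the cell cycle, fell under all treatments. At 37 °C it was at 80.6, 88.1 and 94.4 CPM in replicates A, B and C. After 1 h at 40 °C it was at 58.0, 62.5, 61.5 and 59.7 CPM in replicates A to D, and no library reached the lowest control. After 6 h at 40 °C it was at 79.5, 72.2, 71.3 and 74.7 CPM, all under the lowest control, with replicate A just under it. At 42.5 °C it was at 65.2, 65.7, 73.7 and 62.1 CPM. The log2FCs were -0.54 (SE 0.06, adjusted p = 0.000182) after 1 h at 40 °C, -0.24 (SE 0.06, adjusted p = 0.00631) at 6 h and -0.40 (SE 0.06, adjusted p = 0.00015) at 42.5 °C. From 1 h to 6 h at 40 °C Klf4 rose by 0.30 (SE 0.05, adjusted p = 0.00108), with every library at 6 h above every library at 1 h. Against 1 h at 40 °C the value at 42.5 °C differed by 0.13 (95% interval 0.01 to 0.25) and did not pass the test (adjusted p = 0.0732), but it did without replicate D at 42.5 °C (0.17, adjusted p = 0.0257). Without control replicate C the fall at 6 h had an adjusted p of 0.0506, and without control replicate A the fall after 1 h at 40 °C reached the DEG threshold (log2FC -0.59).

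Klf6 (ENSCGRG00001022784), which encodes a broadly expressed factor induced by tissue injury, was low at 40 °C and high at 42.5 °C. Its levels were 33.2, 35.2 and 41.9 CPM at 37 °C, and 24.0, 26.2, 28.1 and 25.9 CPM after 1 h at 40 °C, which is below all of these controls. After 6 h at 40 °C they were 32.8, 26.5, 30.9 and 32.6 CPM, with the highest just under the lowest control. At 42.5 °C they were 43.0, 48.6, 39.3 and 53.0 CPM, and replicate C lay under the highest control. Against 37 °C the log2FC was -0.49 (SE 0.08, adjusted p = 0.00686) after 1 h at 40 °C, -0.26 (SE 0.09, adjusted p = 0.035) at 6 h and 0.33 (SE 0.10, adjusted p = 0.0126) at 42.5 °C. The direct comparison of 42.5 °C with 40 °C at 1 h gave the largest difference of any member in any of the 6 comparisons, a log2FC of 0.82 (SE 0.09, adjusted p = 3.58e-06), and Klf6 was a DEG there. Against 6 h at 40 °C the difference was 0.58 (SE 0.09, adjusted p = 5.44e-05), a fold change of 1.49 that missed the DEG threshold. It passed that threshold without any of 6 h replicates A and D and 42.5 °C replicates A and C (log2FCs of 0.61 to 0.65). The rise against 37 °C was less firm than these, with an adjusted p of 0.0771 without control replicate A and 0.0572 without control replicate B. The fall at 6 h lost its call without control replicate B (adjusted p = 0.0653) or C (0.216) without 6 h replicate B (0.0985) or C (0.0645), and in 1 fit over all groups (0.0534).

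Klf5 (ENSCGRG00001017865), whose product promotes proliferation of epithelial progenitors, had the smallest relative spread of the members at 37 °C, with 92.3, 88.6 and 90.3 CPM. It was at 84.4, 91.8, 88.1 and 82.3 CPM after 1 h at 40 °C and at 81.1, 81.5, 77.4 and 75.6 CPM after 6 h at 40 °C. At 42.5 °C it was at 115.9, 127.7, 119.7 and 133.7 CPM, higher in every library than in any library of the other groups. The log2FC was -0.06 (SE 0.05, adjusted p = 0.606) after 1 h at 40 °C, -0.20 (SE 0.05, adjusted p = 0.0067) at 6 h and 0.45 (SE 0.05, adjusted p = 6.25e-06) at 42.5 °C. Against 6 h at 40 °C the level at 42.5 °C was higher by 0.65 (SE 0.05, adjusted p = 5.08e-08), which made Klf5 a DEG, and against 1 h at 40 °C by 0.51 (SE 0.05, adjusted p = 2.72e-06). From 1 h to 6 h at 40 °C the change was -0.14 (adjusted p = 0.0695), which passed without 1 h replicate D at an adjusted p that rounds to 0.05. The values at 42.5 °C passed the test in 14 of 14 alternatives in each of these comparisons.

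Klf7 (ENSCGRG00001018794), a factor known for neurite outgrowth, was at 5.47, 5.25 and 4.83 CPM at 37 °C and at 6.59, 7.50, 6.59 and 5.76 CPM at 42.5 °C. These groups did not overlap, yet the difference of 0.33 (SE 0.13) had an adjusted p of 0.0571. It passed without replicate D at 42.5 °C (0.0297) and in 1 fit over all groups (0.0365). At 40 °C the libraries ranged from 4.58 to 4.98 CPM after 1 h and from 4.18 to 5.38 CPM after 6 h, and neither comparison with 37 °C passed the test (adjusted p = 0.696 and 0.365). Against both 40 °C groups Klf7 was higher at 42.5 °C, by 0.46 (SE 0.12, adjusted p = 0.00817) after 1 h and 0.51 (SE 0.14, adjusted p = 0.00559) after 6 h, and the latter reached the DEG threshold without 6 h replicate A (0.59).

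Klf2 (ENSCGRG00001008944), which in endothelium is induced by flow and restrains inflammation, had its lowest levels at 42.5 °C. It was at 2.53, 2.92 and 2.33 CPM at 37 °C, from 27 to 40 counts, and at 1.81, 1.97, 1.36 and 1.10 CPM at 42.5 °C, from 14 to 20 counts. The log2FC of -0.76 (SE 0.22, adjusted p = 0.0126) made it a lower DEG. Without control replicate B it was not called (log2FC -0.66, adjusted p = 0.0649), nor by the Wald test of DESeq2 (adjusted p = 0.0601). At 40 °C its libraries ranged from 1.63 to 1.97 CPM after 1 h and from 1.68 to 2.06 CPM after 6 h, all under the lowest control, with log2FCs of -0.49 and -0.50 that did not pass (adjusted p = 0.235 and 0.0643). The heated groups did not differ from each other by the test. The difference between 42.5 °C and 40 °C had a 95% interval of -0.74 to 0.19 after 1 h and of -0.74 to 0.22 after 6 h, so that a further fall at the higher temperature was not detectable at this depth.

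Klf3 (ENSCGRG00001011019), the member that represses through CtBP, was the only one whose log2FC was positive under every treatment and passed the test under more than 1. It was at 27.4, 31.6 and 35.1 CPM at 37 °C and at 34.1, 42.3, 39.1 and 49.4 CPM at 42.5 °C, where replicate A lay within the control range. Between these it ranged from 33.3 to 43.1 CPM after 1 h at 40 °C and from 32.9 to 45.1 CPM after 6 h, overlapping with the controls both times. The log2FCs were 0.23 (SE 0.09, adjusted p = 0.273) after 1 h at 40 °C, 0.28 (SE 0.10, adjusted p = 0.0419) at 6 h and 0.40 (SE 0.11, adjusted p = 0.00714) at 42.5 °C. At 6 h the call was lost in 1 fit over all groups (adjusted p = 0.077), without control replicate A (adjusted p = 0.214) or B (0.0947) and without 6 h replicate B (0.0501), C (0.0587) or D (0.129), and at 42.5 °C without control replicate A (0.0514). No pair of heated groups differed in Klf3 by the test, with 95% intervals of -0.14 to 0.25 between 6 h and 1 h at 40 °C, -0.04 to 0.38 between 42.5 °C and 40 °C at 1 h, and -0.10 to 0.33 between 42.5 °C and 6 h at 40 °C. Without replicate A at 42.5 °C the second of these passed (0.26, adjusted p = 0.0449).

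Of the members that recruit Sin3A, Klf13 (ENSCGRG00001011758), known from lymphocyte and heart development, fell at 42.5 °C. It was at 9.26, 12.3 and 9.40 CPM at 37 °C and at 9.86, 10.3, 12.2 and 9.31 CPM after 1 h at 40 °C, which overlap. After 6 h at 40 °C it was at 10.5, 7.92, 8.60 and 9.66 CPM. At 42.5 °C it was at 7.49, 7.10, 6.98 and 5.60 CPM, below every library of the other groups but control replicate D. The log2FC against 37 °C was -0.62 (SE 0.14, adjusted p = 0.00196), a lower DEG. Against 1 h at 40 °C it was -0.63 (SE 0.12, adjusted p = 0.00101), also a DEG, and against 6 h -0.44 (SE 0.13, adjusted p = 0.00904). The log2FC against 37 °C was 0.01 (95% interval -0.26 to 0.27) after 1 h at 40 °C and -0.18 (-0.45 to 0.09) at 6 h, neither of which passed. The fall at 42.5 °C kept an adjusted p of at most 0.0199 with each library left out, but its size dropped under 1.5-fold without control replicate B (log2FC -0.47) or without replicate D at 42.5 °C (-0.52). With the replicate letter as a block in the fit it was also under 1.5-fold (-0.52, adjusted p = 0.00231). The DEG call against 1 h at 40 °C was likewise lost without replicate C at 40 °C (-0.55) or replicate D at 42.5 °C (-0.53).

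Klf10 (ENSCGRG00001015251), first described as an early gene of TGF-beta signaling, rose at 42.5 °C. It was at 13.8, 12.8 and 14.8 CPM at 37 °C, between 13.7 and 15.3 CPM after 1 h at 40 °C and at 12.8, 11.7, 13.2 and 9.98 CPM after 6 h at 40 °C. At 42.5 °C it was at 18.5, 23.5, 17.6 and 18.7 CPM, above every library of the other groups. The rise against 37 °C was 0.50 (SE 0.11, adjusted p = 0.00145), a fold change of 1.41. Against 1 h at 40 °C it was 0.43 (SE 0.10, adjusted p = 0.00279) and against 6 h 0.71 (SE 0.11, adjusted p = 5.77e-05), where Klf10 was a DEG. At 40 °C the log2FCs against 37 °C were 0.07 and -0.21 (adjusted p = 0.765 and 0.148). From 1 h to 6 h of heating at 40 °C it was -0.28 (SE 0.10, adjusted p = 0.0536), with no overlap between the groups, and it passed without 6 h replicate A (-0.32, adjusted p = 0.0477) or C (-0.34, adjusted p = 0.0495).

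Klf9 (ENSCGRG00001021634), a gene induced by glucocorticoid and thyroid hormone, was at 6.60, 6.35 and 7.33 CPM at 37 °C. It was at 6.46, 5.99, 5.63 and 4.89 CPM after 1 h at 40 °C and at 6.00, 4.12, 4.81 and 4.68 CPM at 6 h. At 42.5 °C replicate A, at 6.14 CPM, stood apart from the other 3, which lay between 4.05 and 4.26 CPM. The log2FC was -0.22 (SE 0.13, adjusted p = 0.443) after 1 h at 40 °C, -0.47 (SE 0.14, adjusted p = 0.0207) at 6 h and -0.54 (SE 0.15, adjusted p = 0.0105) at 42.5 °C. Without replicate A the value at 42.5 °C was -0.69 and passed the DEG threshold, and the difference from 1 h at 40 °C moved from -0.31 (adjusted p = 0.124) to -0.47 (adjusted p = 0.0244). The fall at 6 h lost its call without control replicate A (adjusted p = 0.0557) or C (0.0814), without 6 h replicate B (0.0591) and in DESeq2's Wald test (0.0511).

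Klf11 (ENSCGRG00001018478), a close relative of Klf10 linked to insulin expression, changed least at 42.5 °C. It ranged from 31.0 to 33.1 CPM at 37 °C, from 28.1 to 30.8 CPM after 1 h at 40 °C, from 22.6 to 29.2 CPM after 6 h at 40 °C and from 26.0 to 32.3 CPM at 42.5 °C. After 1 h at 40 °C the log2FC was -0.11 (SE 0.06, adjusted p = 0.439). Klf11 fell at 6 h by 0.30 in log2FC (SE 0.08, adjusted p = 0.0128), a call lost without control replicate C (adjusted p = 0.0529). At 42.5 °C the log2FC was -0.11 (95% interval -0.27 to 0.05), and between 42.5 °C and 40 °C at 1 h it was 0.00 (-0.15 to 0.15). Between 42.5 °C and 6 h at 40 °C it was 0.18 (SE 0.09, adjusted p = 0.102), which passed without replicate D of either group (adjusted p = 0.0363 and 0.0317), and from 1 h to 6 h of heating at 40 °C it was -0.18, which passed without 6 h replicate D (-0.25, adjusted p = 0.0452).

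The heated groups were also compared directly, by temperature at 1 h, by duration at 40 °C and by both. Groups that differ in duration may also differ in time in culture. Between 42.5 °C and 40 °C at 1 h, 4 members were higher (Klf5, Klf6, Klf7 and Klf10) and 1 lower (Klf13), against 36.1% of 10441 genes that changed in either direction. The background was 16.4% higher and 19.6% lower. Klf6 was a higher and Klf13 a lower DEG, where 5.27% of all genes were called, 1.75% higher and 3.51% lower. For these 5 members the groups did not overlap, which held for 16.3% of genes upward and 17.8% downward. Between 1 h at 42.5 °C and 6 h at 40 °C, which differ in both temperature and duration, Klf5, Klf6, Klf7 and Klf10 were again higher and Klf4 and Klf13 lower, against 47% of 10427 genes, 22.5% higher and 24.5% lower. Klf5 and Klf10 were DEGs, where 8.25% of all genes were called and 2.53% were higher. The groups did not overlap in 4 members upward and 1 downward, against 20.5% and 21.3% of genes. Between 6 h and 1 h at 40 °C only Klf4 and Klf6 passed, both higher at 6 h, against 18.5% of 10439 genes, 9.45% higher and 9.04% lower, and no member was a DEG, where 1.28% of all genes were called. The libraries lay fully apart in 1 member upward (Klf4) and 2 downward (Klf5 and Klf10), against 10.9% and 10.3% of genes. The difference of Klf6 by duration was 0.24 (SE 0.08, adjusted p = 0.0432) and passed in 7 of 14 alternatives, with adjusted p between 0.0676 and 0.124 without any of 40 °C 1 h replicates A, B and D and 6 h replicates A, C and D. That of Klf4 between 42.5 °C and 6 h at 40 °C, -0.17 (SE 0.06, adjusted p = 0.0292), was lost without any of 6 h replicates A and D and 42.5 °C replicates A, B and D, at adjusted p between 0.0508 and 0.0918. These comparisons share heated libraries with each other.

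**Figure D3:**
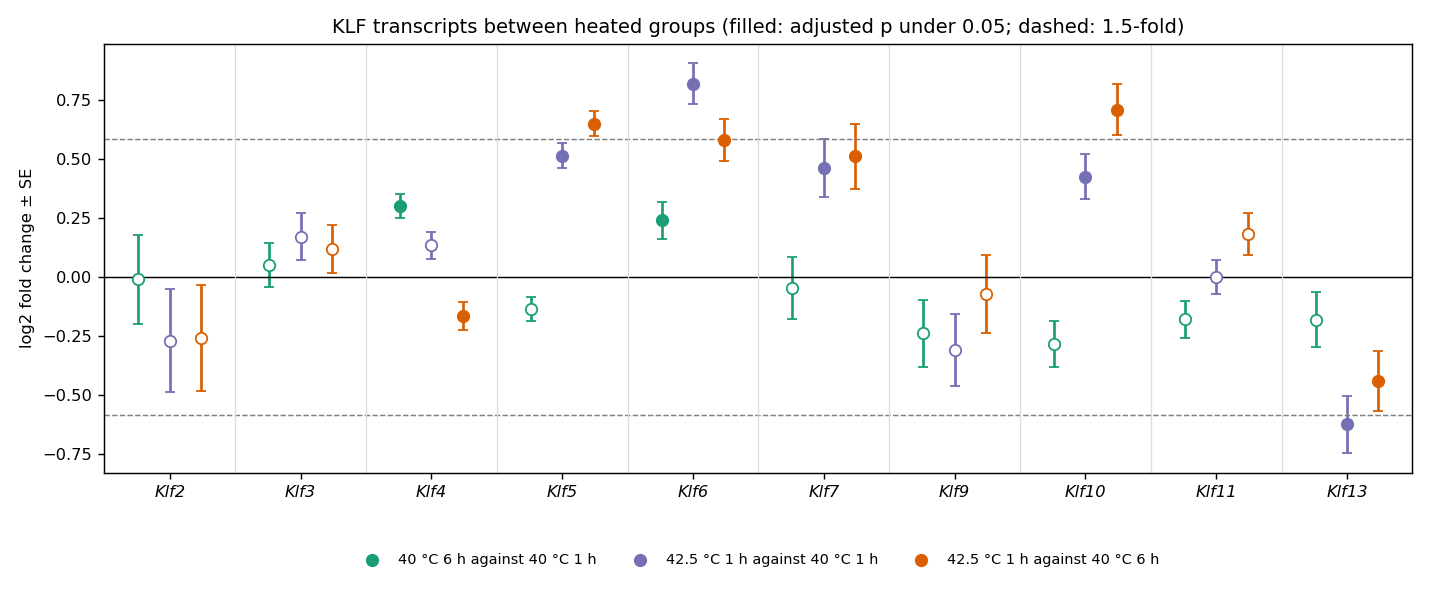
Log2FC ± SE between heated groups for each KLF gene. Filled points have an adjusted p under 0.05 and dashed lines mark 1.5-fold. Klf5, Klf6, Klf7 and Klf10 lie between 0.43 and 0.82 when 42.5 °C is compared with either 40 °C group, Klf13 lies at -0.63 and -0.44, and Klf6 is the highest point.

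Control replicate D, the library left out, was lower than replicates A, B and C in 7 of 10 members and higher in 0, while 41% of 10600 genes were lower and 42.6% higher in it. Klf7 was at 1.25 CPM in D, from 14 counts, against a mean of 5.18 CPM in the others, a ratio of 0.24. Klf9 was at 3.02 against 6.76 CPM, Klf6 at 22.9 against 36.8, Klf10 at 8.19 against 13.8 and Klf13 at 6.05 against 10.3. Klf2 and Klf4, at 2.58 and 86.4 CPM, and Klf3, at 27.8 CPM, lay within the range of the others. With D among the controls, 1 member passed after 1 h at 40 °C (Klf4), 0 after 6 h at 40 °C, where the 6 members called without D had adjusted p between 0.0552 and 0.662, and 5 at 42.5 °C. Over all genes 0.0383%, 10.7% and 18.2% passed in these fits, against 1.64%, 29.4% and 43.1% without D. Klf6 after 1 h at 40 °C then had a log2FC of -0.36 (adjusted p = 0.671), and at 42.5 °C Klf13 one of -0.45 (adjusted p = 0.157) and Klf9 one of -0.33 (adjusted p = 0.422). The rise of Klf6 at 42.5 °C did not pass with D either (log2FC 0.47, adjusted p = 0.0907). Klf10 at 42.5 °C rose by 0.65 (adjusted p = 0.0309) and became a DEG in that fit.

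**Figure D4:**
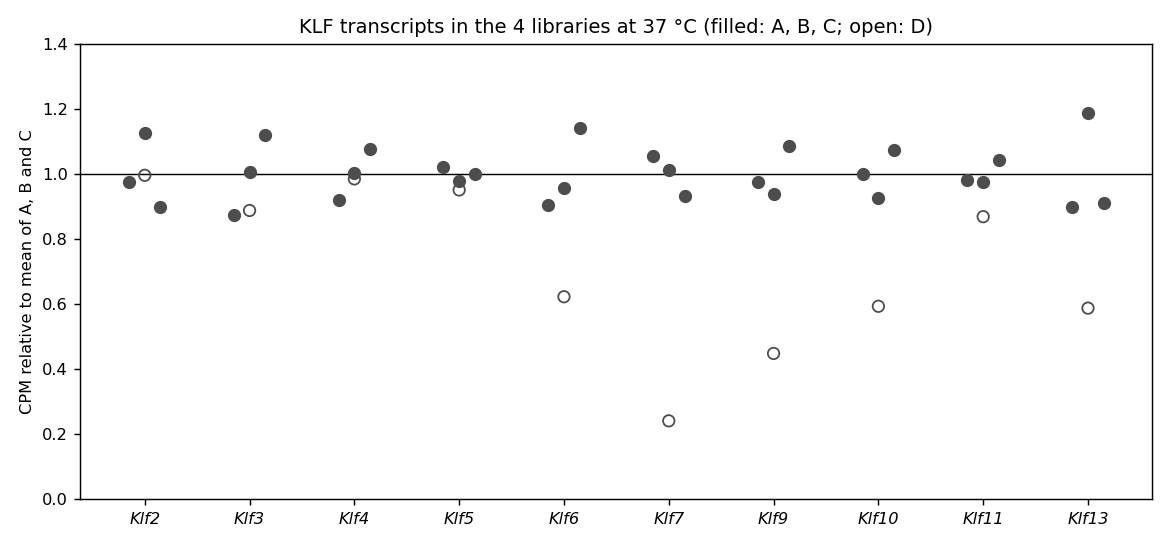
Level of each KLF gene in the 4 libraries at 37 °C, as CPM relative to the mean of replicates A, B and C (vertical axis from 0). Filled points are A, B and C and the open circle is D, which lies at 0.24 for Klf7, 0.45 for Klf9 and 0.59 to 0.62 for Klf6, Klf10 and Klf13, and near 1 for Klf2 and Klf4.

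Other genes of the family and its setting were read from lists written from general knowledge. Of 17 further KLF and SP names 15 were found, and 5 passed the filter. The other 10, which are Klf12, Klf14, Klf15, Klf17, Sp5, Sp6, Sp7, Sp8, Sp9 and the erythroid factor Klf1, had at most 4 counts in any library. Of the 5, at 42.5 °C 1 rose and 2 fell, with a median log2FC of 0.01, against 43.1% of all genes that changed, and after 6 h at 40 °C 1 rose and 1 fell, against 29.4%. Sp1, the founding GC-box activator, was at 30.0 ± 2.10 CPM at 37 °C (SD, n = 3), 35.7 ± 2.79 after 1 h at 40 °C (SD, n = 4), 42.7 ± 2.07 after 6 h (SD, n = 4) and 49.2 ± 4.47 at 42.5 °C (SD, n = 4). Its log2FC was 0.25 (adjusted p = 0.115) after 1 h at 40 °C, and it rose at 6 h by 0.51 (SE 0.07, adjusted p = 6.17e-05) and at 42.5 °C by 0.71 (SE 0.08, adjusted p = 3.28e-06), where it was a DEG. Sp2 fell by 0.36 in log2FC at 6 h (SE 0.07, adjusted p = 0.000606) and by 0.16 at 42.5 °C (SE 0.06, adjusted p = 0.0416), and with D among the controls neither passed (adjusted p = 0.055 and 0.534). The call at 42.5 °C held in 6 of 14 alternatives and was lost without any of control replicates A and B (adjusted p = 0.0966 and 0.184) or 42.5 °C replicates A, B and C (0.0981, 0.103 and 0.0855). Klf16, a Sin3A-recruiting relative of Klf13, was at 6.79 ± 0.57 CPM at 37 °C (SD, n = 3) and 4.83 ± 0.92 at 42.5 °C (SD, n = 4), a log2FC of -0.49 (SE 0.15, adjusted p = 0.0153) that lost its call without control replicate B (adjusted p = 0.0705) or 42.5 °C replicate B (0.0526), and with D among the controls (0.21). Without 42.5 °C replicate A it became a DEG (-0.60, adjusted p = 0.00528). Klf8 and Sp4 passed in none of the comparisons, and their log2FCs against 37 °C lay between 0.01 and 0.25.

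Of the KLF co-regulators, 9 of 10 names were found and all 9 passed the filter, and at 42.5 °C 3 rose and 1 fell, with a median log2FC of 0.04, against 43.1% of all genes that changed. Crebbp, which encodes an acetyltransferase that KLF activators recruit, was at 21.2 ± 0.76 CPM at 37 °C (SD, n = 3) and 38.0 ± 4.02 at 42.5 °C (SD, n = 4). It was the only DEG of the list, with a log2FC of 0.83 (SE 0.08, adjusted p = 1.71e-06), against 7.51% of all genes. The other 3 are named after their values were seen. Kat2b and Ep300, which encode further acetyltransferases, rose by 0.25 and 0.14 (adjusted p = 0.0153 and 0.0398). Sin3a, the scaffold that the Klf9 and Klf10 products bind, fell by 0.18 in log2FC (SE 0.05, adjusted p = 0.00556). After 6 h at 40 °C Kat2b rose by 0.32 (SE 0.09, adjusted p = 0.0103) and Sin3a fell by 0.19 (SE 0.05, adjusted p = 0.0103). After 1 h at 40 °C 0 of the 9 passed. Of all genes 29.4% changed after 6 h and 1.64% after 1 h.

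Of 16 genes of the MEK5-ERK5-MEF2, TGF-beta and other signaling upstream of KLF genes, 14 were tested, and 3 rose and 4 fell at 42.5 °C with 0 DEGs against 37 °C and a median log2FC of -0.01, where 43.1% of all genes changed and 7.51% were DEGs. Named after their values were seen, Nr3c1, the glucocorticoid receptor gene, Mef2a and Tgfbr1 rose by 0.41, 0.32 and 0.17 (adjusted p = 1.96e-05, 0.000148 and 0.02). Mapk7, which encodes ERK5, had a log2FC of -0.55, Map3k3 one of -0.32, Smad3 one of -0.28 and Srf one of -0.20 (adjusted p = 0.00097, 0.000463, 0.00932 and 0.0113). At 40 °C 0 passed after 1 h, where 1.64% of all genes changed. After 6 h, where 29.4% changed, Tgfbr2 rose by 0.23 and Tgfb1 fell by 0.17 (adjusted p = 0.00137 and 0.0406). Of the ubiquitin ligases known to act on KLF proteins, 4 of 5 names were found and tested. At 42.5 °C 1 of the 4 passed, where 43.1% of all genes changed. It was Smurf2, again named after its value was seen, which rose by 0.32 (SE 0.04, adjusted p = 9.52e-06). At 40 °C 0 passed after 1 h or 6 h, where 1.64% and 29.4% of all genes changed. The median log2FC of the ligases at 42.5 °C was 0.12, and that of all genes tested was -0.0017.

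Of 14 textbook KLF target genes, 11 were tested at 42.5 °C, where 2 rose and 4 fell, and 12 after 6 h at 40 °C, where 1 rose and 4 fell, against 43.1% and 29.4% of all genes that changed. None of 11 passed after 1 h at 40 °C, where 1.64% of all genes changed. Smad7, which encodes the inhibitory SMAD that KLF10 is known to repress, was at 5.54, 3.21 and 5.09 CPM at 37 °C and between 27.0 and 33.9 CPM at 42.5 °C, a log2FC of 2.66 (SE 0.14, adjusted p = 2.68e-09). Thbd, the thrombomodulin gene that KLF2 is known to activate in endothelium, was at 39.0 ± 1.59 CPM at 37 °C (SD, n = 3) and 23.2 ± 1.39 at 42.5 °C (SD, n = 4), a log2FC of -0.76 (SE 0.07, adjusted p = 6.24e-07). Smad7 and Thbd were the 2 DEGs of this list at 42.5 °C, against 7.51% of all genes, and the list's median log2FC there was -0.01. Named after their values were seen, Igf1r rose by 0.58 (SE 0.10, adjusted p = 0.000275), and Ccnd1, Myc and Cdkn1b, which act in the cell cycle, had log2FCs of -0.46, -0.39 and -0.30 (adjusted p = 1.82e-05, 2.7e-05 and 0.00158). After 6 h at 40 °C Cdkn1b rose by 0.26 (adjusted p = 0.00651), while Txnip, Cdkn1a, Ccnd1 and Myc had log2FCs of -0.56, -0.55, -0.31 and -0.30 (adjusted p = 8.56e-05, 0.0017, 0.000265 and 0.000541). Whether any KLF acts on these genes in CHO cells was not tested.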

How the data were processed

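Total RNA from 16 CHO cultures was sequenced as paired-end reads on an Illumina NextSeq from TruSeq libraries. The authors demultiplexed reads with bcl2fastq, trimmed them, mapped them to the CHOK1GS_HDv1 hamster genome and counted them per gene in CLC Genomics Workbench, whose version, annotation release and strand setting are not given in the sources used here. The deposited values are raw counts, whole numbers with no normalization. Without a stated strand setting, reads from overlapping or antisense genes cannot be told apart, and reads from the conserved zinc finger exons may be shared between members.

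The count matrix was analyzed with edgeR 4.0.16 in R 4.3.3 (limma 3.58.1). For each of 6 pairwise comparisons only the libraries of both groups were fitted, after filterByExpr and TMM, with the quasi-likelihood F test and Benjamini-Hochberg adjustment over all genes tested. DEGs were genes with adjusted p under 0.05 that changed 1.5-fold or more. SE is the log2 fold change divided by the root of F, and 95% intervals use the t distribution with the fit's degrees of freedom. CPM levels use TMM factors over all 16 libraries. The study excluded 1 control. Library D at 37 °C was taken to be that one because the study's listed control counts matched the other libraries and not this one, and no other use was made of those counts. Total counts lay between 10504192 and 14668365 per library, which limits the genes with few counts most. The study describes the 4 cultures per group as biological repeats.

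All 10 members were tested in every comparison, though not every fold change is printed. Of the other lists, genes called as DEGs against 37 °C and KLF or SP genes passing the filter are described, and genes named for another reason are marked and were not run under the alternatives. The members and the lists were chosen with earlier results of these data known. Alternatives were DESeq2 1.42.0 (size factors and Wald test), no filter or at least 10 counts in every library, 1 fit over all groups, a replicate block, glmTreat, the adjusted p alone, all 4 controls and leaving out each library. The count of members at the adjusted p alone under each alternative was added after seeing the data. The scripts were tested on simulated data. No sequences or coordinates are given because no genome of this build was used here.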

Additional observations from a re-analysis of the deposited data

Results flagged for a closer look

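Among 40 groups of 4 libraries, 10 members in 4 conditions, 2 had a library far from the rest, and chance alone gives about 1 in 20 groups. Klf7 was at 1.25 CPM in 37 °C replicate D, while replicates A, B and C were between 4.83 and 5.47 CPM. Klf9 was at 6.14 CPM in replicate A at 42.5 °C, while the others were between 4.05 and 4.26 CPM.

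In 4 cases the effect of heat differed between heated groups by edgeR's direct comparison of those groups, with the change also at least 1.5-fold. Between 42.5 °C and 40 °C at 1 h the log2 fold change of Klf6 was 0.82 (adjusted p = 3.58e-06) and that of Klf13 was -0.63 (adjusted p = 0.00101). When 1 h at 42.5 °C was set against 6 h at 40 °C, Klf5 was higher by 0.65 (adjusted p = 5.08e-08) and Klf10 by 0.71 (adjusted p = 5.77e-05). Over all genes 5.27% were DEGs in the first comparison and 8.25% in the second. In each of the 4 cases all 4 libraries of one group lay beyond all 4 of the other. That held for 16.3% of all genes upward and 17.8% downward in the first comparison, and for 20.5% upward in the second. The cases were chosen from the same libraries, so the lack of overlap is no separate evidence.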

How the results depend on the processing

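Over the 60 fold changes of members, 761 of 840 alternatives kept direction and side of the threshold, 46 lost the call, 17 gained one and 16 turned the sign. For the other 30 named results 387 of 419 did, 15 lost the call, 1 gained it and 16 turned the sign. By the adjusted p without the fold change, 2 members in place of 0 DEGs were called at 40 °C for 1 h, 6 in place of 0 at 40 °C for 6 h and 8 in place of 2 at 42.5 °C, each against 37 °C, and 2 in place of 0 between 6 h and 1 h at 40 °C, 5 in place of 2 between 42.5 °C and 40 °C at 1 h and 6 in place of 2 between 42.5 °C and 40 °C for 6 h. glmTreat, which tests against the 1.5-fold itself, called 0 in all 6 comparisons, against 2 DEGs at 42.5 °C in each of its 3. At 42.5 °C against 37 °C DESeq2's Wald test called 1 DEG. With all 4 controls the counts at the adjusted p alone were 1 in place of 2, 0 in place of 6 and 5 in place of 8. Klf7 then had log2 fold changes of 0.15 at 40 °C for 1 h and 0.10 at 6 h, both negative without D, neither called. One fit over all groups called 1 member in place of 2 between 6 h and 1 h at 40 °C. Shares of all genes are given above for the fits of the Results and those with all 4 controls only. Counts of members under the other alternatives do not show whether members changed more than genes in general.

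Leaving out 1 library, DEG counts ranged from 0 to 1 at 40 °C for 1 h (1 without control replicate A), 0 to 3 at 42.5 °C (0 without control replicate B, 1 without 42.5 °C replicate D), 1 to 2 between 42.5 °C and 40 °C at 1 h (1 without 40 °C replicate C or 42.5 °C replicate D) and 2 to 4 between 42.5 °C and 40 °C for 6 h (4 without 6 h replicate A). Counts at the adjusted p alone ranged from 2 to 6 at 40 °C for 6 h (2 without control replicate C, 3 without 6 h replicate B) and from 1 to 2 between 6 h and 1 h (1 without 1 h replicate A or B). Small differences that never passed the test turned sign in some of these fits. Against 37 °C at 40 °C for 1 h, Klf13 ranged from -0.073 to 0.16, Klf16 from -0.078 to 0.086, Sp4 from -0.066 to 0.10, Crebbp from -0.043 to 0.088 and Smad7 from -0.13 to 0.25. Klf8 ranged from -0.31 to 0.37 at 6 h and from -0.16 to 0.13 at 42.5 °C. Between 6 h and 1 h at 40 °C Klf2 ranged from -0.070 to 0.029 and Klf3 from -0.044 to 0.14. Klf11 between 42.5 °C and 40 °C at 1 h ranged from -0.040 to 0.068, and was -0.0054 with no filter, and Klf9 between 42.5 °C and 40 °C for 6 h from -0.23 to 0.032.

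The letters A to D were not treated as pairs. Deviations from the group means correlated by 0.048 on average over 21 same-letter pairs of libraries (-0.049 to 0.172) and by -0.016 over 63 others. The deviations cancel within each group, so the second average follows from the first and is no separate comparison. By these correlations 5 of 15 libraries were closest to their own letter. With the replicate block 1 DEG (Klf2) was called at 42.5 °C against 37 °C, where 9 members in place of 8 passed the adjusted p (Klf7 at 0.0302). Between 6 h and 1 h at 40 °C 4 in place of 2 passed. At 40 °C for 1 h 3 in place of 2 passed (Klf3 at 0.0312) and at 6 h 4 in place of 6 (without Klf3 at 0.0813 and Klf9 at 0.0506). Klf8 then had log2 fold changes of -0.018 at 6 h and -0.11 at 42.5 °C. The cause of these changes was not tested. The 14 counts of Klf2 and Klf7 in their lowest libraries set the depth limit of the members.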
